A study of Mus musculus with 18 samples.

Results

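The 6 genes described here encode structural proteins of the inner root sheath of the hair follicle: the type I keratins Krt25, Krt27 and Krt28, the type II keratins Krt71 and Krt73, and trichohyalin, Tchh. They were taken as every probe set (a group of probes on the array that reads 1 transcript) whose platform annotation names one of these genes. That rule gave 6 genes of 18193 named on the array, each read by 1 of its 45037 probe sets, and it used no measured value.

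The inner root sheath is the stiff tube that surrounds and shapes the growing hair shaft below the skin surface. Its cells arise from the hair matrix, and their keratins pair as 1 type I with 1 type II chain into filaments that trichohyalin, after modification by peptidylarginine deiminases and transglutaminases, binds into a hard matrix. The sheath is built while a follicle grows and is absent from a resting follicle, and its lower part lies deep in the skin.

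The study measured RNA on 18 Affymetrix mouse arrays, 3 for each of 6 groups: dermis, epidermis and whole skin of K14NICDER transgenic mice and of wild-type mice. All mice were C57Bl6xCBA F1 females, 7 weeks old when treatment began, and both genotypes received 4OHT (4-hydroxytamoxifen) for 14 days, so that no group was free of the compound. K14NICDER denotes the Notch intracellular domain fused to a hormone-binding domain that this compound activates, under the keratin 14 promoter, which is active in basal keratinocytes of the epidermis and in the outer root sheath. The labels do not say how many animals gave each sample, whether tissues of 1 animal were split over the groups, or whether animals were pooled, so the p-values measure only the spread between these samples.

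Values are log2 signal unless called linear, and a difference of 1 is a change by a factor of 2. On this scale dim probe sets scatter widely, and 2.81% to 9.36% of the values of an array lay below 0. The number of arrays, 3 in each group, limits the precision. The tissue labels were set against marker lists: over 7 dermal fibroblast genes the mean log2 signal of an array was 10.7 to 10.9 in dermis and 7.54 to 9.41 in epidermis, and over 8 genes of differentiated interfollicular keratinocytes it was 8.44 to 10.5 in dermis and 11.5 to 12.1 in epidermis. The epidermis arrays therefore also carried fibroblast transcripts, and the dermis arrays keratinocyte transcripts. Over 6 skeletal muscle genes the mean varied widely within groups. It was 4.18 to 9.30 in wild-type and 3.71 to 9.73 in transgenic dermis, and 5.06 to 8.34 and 5.26 to 8.54 in epidermis. In whole skin it was 4.36 to 9.48 in wild-type and 7.05 to 8.64 in transgenic samples. The part of this variation in the member values was not tested. Over 9 genes of the outer root sheath and bulge the mean was 8.57 to 9.18 in dermis and 5.91 to 7.35 in epidermis, and the transgenic epidermis range of 5.91 to 6.40 lay below the wild-type range of 6.78 to 7.35. That list was split in epidermis, with 3 genes called higher in transgenic samples and 3 called lower, where 0.651% of all probe sets were called higher. At the brightest probe set 3 of its genes were higher and 5 lower with a limma unadjusted p below 0.05. Of all 45037 probe sets, 2423 and 4436 were. The summed linear signal of the list in epidermis overlapped, at 4953 to 5359 in wild-type and 5068 to 6812 in transgenic samples. In such bulk tissue, more cells of a type and more RNA per cell cannot be told apart. Notch1 was read by 2 probe sets, the brighter one at 7.58, 8.31 and 8.10 in wild-type dermis and 8.26, 7.49 and 8.05 in transgenic dermis. In epidermis this probe set was at 8.34, 8.53 and 8.03 in wild-type and 7.88, 7.57 and 8.60 in transgenic samples, so that at it the genotypes overlapped in both tissues. The dimmer one overlapped in dermis. In epidermis it was at 8.21, 7.82 and 8.03 in wild-type and 7.29, 7.04 and 7.59 in transgenic samples, lower in every transgenic sample but not called. The sources used here do not say whether the probes of either lie inside the part that the transgene carries.

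In dermis, 4 of the inner root sheath genes stood at the top of the differences between the genotypes. Krt25, Krt27, Krt71 and Tchh were higher in transgenic dermis by between 4.51 and 8.45 log2 units and were the 4 probe sets with the smallest p of 45037. Krt73 was also far apart but just missed the threshold, and Krt28 had the smallest difference, with rank 71 by p and 922 by size. Every transgenic dermis sample lay above every wild-type dermis sample for all 6 genes.

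Krt25 is a type I keratin of the inner root sheath, altered in a human woolly hair disorder. In wild-type dermis it stood at 1.62, 1.34 and 1.98, and in transgenic dermis at 10.26, 10.38 and 9.66. On the linear scale this was 2.52 to 3.95 against 807 to 1328, so that a signal near the bottom of the scale in all 3 wild-type samples faced a strong one in all 3 transgenic samples. The difference was 8.45 ± 0.38 (SE, n = 3 and 3) with a limma adjusted p of 6.25e-06, the largest difference and the smallest p on the array.

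Krt27, the type I keratin encoded near it, stood at −0.91, 1.69 and 1.96 in wild-type dermis and at 9.77, 9.56 and 8.19 in transgenic dermis. The first wild-type sample was the lowest of all and the third transgenic sample the lowest of its group, but the gap between the groups was wider than either range. The difference was 8.26 ± 0.74 (SE; limma adjusted p = 0.00377).

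Krt28, the third type I keratin of the set, differed less. Its wild-type dermis values were 4.87, 4.42 and 4.82, and its transgenic dermis values were 6.82, 5.87 and 6.93. The groups did not overlap, but the difference of 1.84 ± 0.41 (SE; 95% interval 0.93 to 2.75) did not pass the test over all probe sets, with a limma adjusted p of 0.614.

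Krt71 is a type II keratin of all layers of the inner root sheath, altered in curly-coated mouse mutants. It stood at 1.12, 1.79 and 1.61 in wild-type dermis and at 7.66, 7.79 and 6.43 in transgenic dermis. All wild-type samples were low and close together, and the third transgenic sample was again the lowest of its group. The difference was 5.79 ± 0.56 (SE; limma adjusted p = 0.00432).

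Krt73, the type II keratin of the sheath cuticle, stood at −0.42, −0.77 and −0.99 in wild-type dermis and at 7.09, 4.73 and 5.36 in transgenic dermis. The first transgenic sample was well above the other two, and all 3 exceeded the wild type. The difference of 6.45 ± 0.87 (SE; 95% interval 4.54 to 8.37) had a limma adjusted p of 0.0534, rank 11 of 45037.

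Tchh encodes trichohyalin, the cargo of the sheath's granules and the partner that binds the keratin filaments. Wild-type dermis already gave a measurable signal, at 5.21, 4.84 and 5.81, and transgenic dermis gave 9.58, 10.38 and 9.44. On the linear scale the samples ran from 28.7 to 56.2 and from 693 to 1334. The difference was 4.51 ± 0.36 (SE; limma adjusted p = 0.00152).

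In all, 4 of the 6 members passed the test in dermis, each of them higher, where 0.0222% of all probe sets were called higher (10 of 45037) and none lower. The groups did not overlap, with the transgenic samples above, in 6 of 6 members and in 3.51% of all probe sets. The median difference was 6.12 for the members and −0.06 for all probe sets. The other 6 called probe sets read Saa3, an acute-phase protein (7.15), Cbln1, a synaptic secreted protein (6.15), Prr9 (4.16), the gap junction gene Gjb2 (2.87), the protease inhibitor gene Serpina3n (2.49) and the matrix glycoprotein gene Tnc (2.34). Without the transgenic dermis sample 2, Krt27 (limma adjusted p = 0.0858) and Krt71 (0.136) lost their calls and the calls on the array were those of Krt25 and Tchh alone. With 16 added on the linear scale, which damps dim values, the differences fell to 5.86 for Krt25, 5.01 for Krt27, 3.21 for Krt71 (limma adjusted p = 0.0519) and 2.11 for Krt73 (0.634), and with all 18 arrays in 1 fit Krt25 (0.154) and Krt71 (0.0778) lost their calls while Krt73 passed (5.99e-04).

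**Figure D1:**
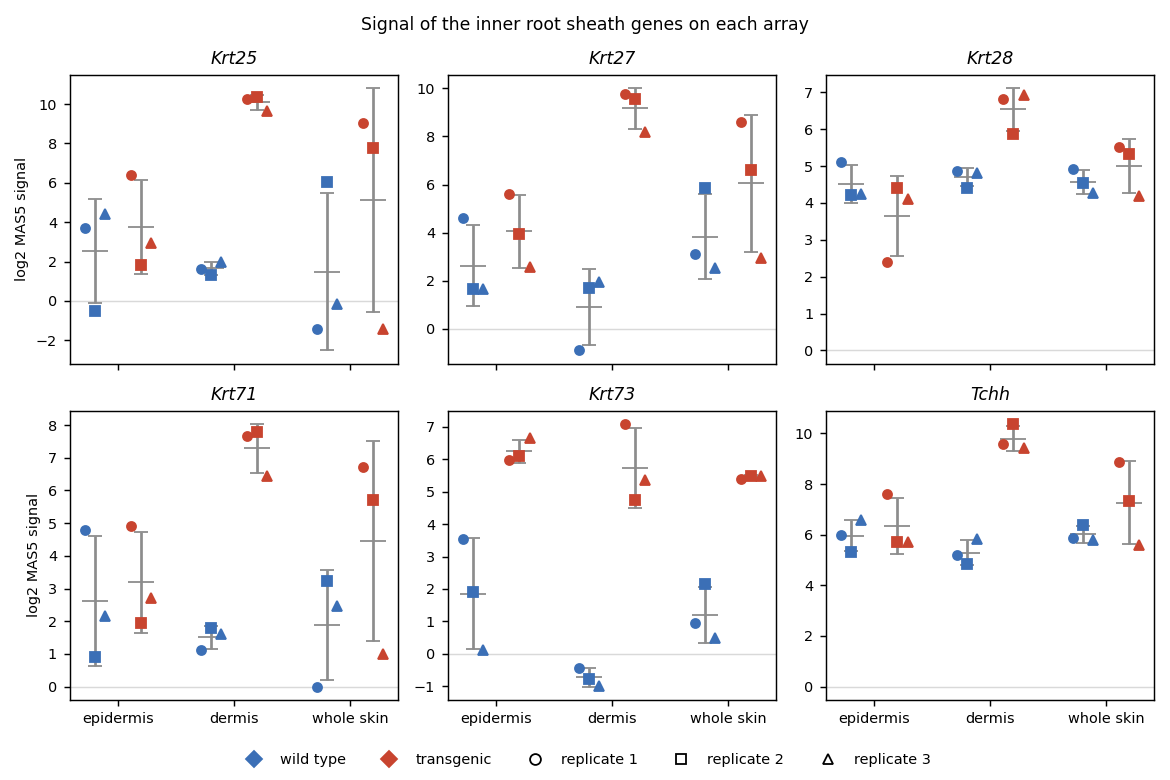
Log2 signal of each of the 6 members on the 18 arrays, 1 panel a gene, by tissue and genotype, with 1 point a sample, a line at the group mean and bars of 1 SD. In dermis the transgenic points lie above the wild-type points in every panel, and the third transgenic whole skin sample lies far below the other two for Krt25 (9.02 and 7.79 against −1.43).

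The DNA just before the transcription start was compared because 4 of these genes were called together in dermis. The windows below are the 250 bases before the annotated start of the 2 type I and the 2 type II keratins with the largest dermis differences, from RefSeq on build GRCm38.p6, read 5′ to 3′ on the gene's strand, which is the minus strand for all 4. They lie at chr11:99322952-99323201 (Krt25), chr11:99351119-99351368 (Krt27), chr15:101743098-101743347 (Krt71) and chr15:101802361-101802610 (Krt73). Capitals mark TATAAA (the TATA box word), AGATAA and TGATAA (words that GATA factors can bind).
Krt25: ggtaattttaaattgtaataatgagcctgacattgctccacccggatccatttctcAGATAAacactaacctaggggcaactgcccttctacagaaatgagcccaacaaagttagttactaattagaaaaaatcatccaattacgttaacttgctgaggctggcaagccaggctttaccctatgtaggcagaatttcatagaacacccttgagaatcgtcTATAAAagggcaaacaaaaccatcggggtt
Krt27: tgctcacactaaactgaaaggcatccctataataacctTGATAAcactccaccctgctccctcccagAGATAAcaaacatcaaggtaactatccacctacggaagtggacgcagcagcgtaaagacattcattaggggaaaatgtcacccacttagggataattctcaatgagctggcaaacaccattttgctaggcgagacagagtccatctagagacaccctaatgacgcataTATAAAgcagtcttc
Krt71: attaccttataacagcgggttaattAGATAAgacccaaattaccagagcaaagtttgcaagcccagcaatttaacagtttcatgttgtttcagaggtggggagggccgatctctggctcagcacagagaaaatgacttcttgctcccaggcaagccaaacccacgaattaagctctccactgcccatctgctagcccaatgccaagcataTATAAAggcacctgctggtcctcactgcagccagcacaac
Krt73: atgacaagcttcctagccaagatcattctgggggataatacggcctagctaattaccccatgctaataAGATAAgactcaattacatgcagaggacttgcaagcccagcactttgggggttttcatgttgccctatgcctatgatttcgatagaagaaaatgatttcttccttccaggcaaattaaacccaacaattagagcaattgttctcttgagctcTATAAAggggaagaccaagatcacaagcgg

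TATAAA was found in 5 of the 6 windows, all but that of Tchh, and in 12.4% of 32851 annotated mouse windows of the same length. Its first base lay 30 bases before the start in Krt25, Krt28 and Krt73, 40 in Krt71 and 15 in Krt27. AGATAA was found in 5 of the 6 windows, all but that of Krt28, and in 9.99% of all windows, at 182 to 225 bases before the start in the 4 keratins printed above and at 154 in Tchh. Krt71 and Krt73 shared a run of 14 bases, ttgcaagcccagca, which began 196 and 154 bases before their starts, and no other pair of members shared more than 12. Such matches describe the letters only. In all, 19 words were searched on both strands, chosen with these data known, and the others are given with the members that held them and the share of all windows. The GATA word TGATAA was in 1 member (Krt27; 7.94%). The LEF/TCF words were CTTTGA (2 members, 13.8%) and CTTTGTT (1 member, 5.03%). The words of RBPJ, the DNA partner of Notch, were GTGGGAA (0 members, 5.42%) and TGTGGGA (0 members, 4.85%), which can overlap at 1 site. The E box words were CACGTG (0 members, 6.02%) and CANNTG (3 members, 66.2%), which takes in the former. The AP-1 word TGANTCA (6.75%), the AP-2 word GCCNNNGGC (13.7%) and the KLF word CCACACCC (3.20%) were in no member. The CCAAT box word CCAAT was in 3 members (33.9%) and the SOX word ATTGTT in 2 (9.42%), and the latter can overlap TTTATTG (1 member, 4.20%). The remaining short words were GACGC (22.6%), then CATAAA (10.8%), then TTTACG (2.62%) and then TGCCAA (12.3%), each in 1 member.

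In epidermis, Krt73 was the one member that passed. It stood at 3.55, 1.89 and 0.12 in wild-type samples and at 5.98, 6.09 and 6.66 in transgenic samples, so that 3 even transgenic values lay above 3 scattered wild-type values. The difference was 4.39 ± 0.79 (SE; limma adjusted p = 0.0196). That made 1 of 6 members called higher, where 0.651% of all probe sets were, and 1 of 6 not overlapping, where 6.37% were. Without transgenic epidermis sample 1, 2 or 3 the limma adjusted p of Krt73 was 0.108, 0.0814 or 0.0907, and with 16 added its difference was 2.13 (limma adjusted p = 0.0195).

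The other 5 members overlapped between the genotypes in epidermis. Krt25 was at 3.69, −0.51 and 4.40 in wild-type and 6.41, 1.84 and 2.95 in transgenic samples, a difference of 1.21 (95% interval −1.68 to 4.10; limma adjusted p = 0.679). Krt27 was at 4.59, 1.64 and 1.66 against 5.60, 3.96 and 2.59 (1.42, interval −0.71 to 3.55; 0.502). Krt71 was at 4.80, 0.92 and 2.16 against 4.91, 1.94 and 2.72 (0.57, interval −1.78 to 2.91; 0.822). In these 3 genes the first sample of each genotype was among the higher ones, and the range within a genotype exceeded the difference between genotypes. Krt28 was at 5.10, 4.21 and 4.23 against 2.40, 4.42 and 4.10 (−0.88, interval −2.33 to 0.57; 0.541). Tchh was at 5.99, 5.33 and 6.57 against 7.62, 5.70 and 5.70 (0.38, interval −0.73 to 1.48; 0.743). These intervals are wide, and they leave room for a change of 2 log2 units or more upward in Krt25, Krt27 and Krt71 and downward in Krt28. The median difference over the members was 0.89, against −0.30 over all probe sets; quantile normalization brought the latter to −0.03.

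In whole skin Krt73 was again called, and the other members split between samples. Krt73 stood at 0.95, 2.14 and 0.49 in wild-type and at 5.40, 5.49 and 5.48 in transgenic samples, which lay within 0.1 of each other. The difference was 4.26 ± 0.46 (SE; limma adjusted p = 0.00391), and it passed with any 1 of the 6 samples left out. One of 6 members was called higher, against 0.562% of all probe sets, and 1 of 6 did not overlap, against 8.44%. With 16 added the difference was 1.69 (limma adjusted p = 0.00217).

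Krt25 in whole skin was at −1.44, 6.04 and −0.16 in wild-type samples and 9.02, 7.79 and −1.43 in transgenic samples. The first and second transgenic samples were above every wild-type sample, and the third was as low as the lowest of them. Krt27 was at 3.12, 5.85 and 2.51 against 8.60, 6.59 and 2.95, and Krt71 at −0.0028, 3.22 and 2.46 against 6.71, 5.71 and 0.98. Tchh was at 5.85, 6.39 and 5.80 against 8.87, 7.31 and 5.61, and Krt28 at 4.91, 4.54 and 4.26 against 5.52, 5.33 and 4.17. For all 5 genes the third transgenic sample was the lowest of its group, and the second wild-type sample was the highest of its group for all but Krt28. The differences were 3.65 ± 2.61 for Krt25 (limma adjusted p = 0.625), 2.22 ± 1.26 for Krt27 (0.520), 2.57 ± 1.34 for Krt71 (0.478), 1.25 ± 0.63 for Tchh (0.461) and 0.44 ± 0.36 for Krt28 (0.678), each ± SE. Without the third transgenic sample they were 6.92 (limma adjusted p = 0.140), 3.76 (0.116), 4.31 (0.0596), 2.07 (0.0526) and 0.85 (0.232).

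Krt73 was not low in the third transgenic sample, and other genes were low there with the remaining members. Krt26, a further type I sheath keratin, was at 5.11, 3.80 and −0.79 in transgenic whole skin, Prr9 at 8.77, 7.67 and 5.61, and Tchhl1 at 6.0, 4.25 and 2.58. The summed linear signal of the 6 members ran from 122 to 1565 over the transgenic whole skin samples and from 88.6 to 244 over the wild-type ones. In dermis the sums were 59.9 to 95.9 in wild-type and 2042 to 3725 in transgenic samples, with no overlap.

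**Figure D2:**
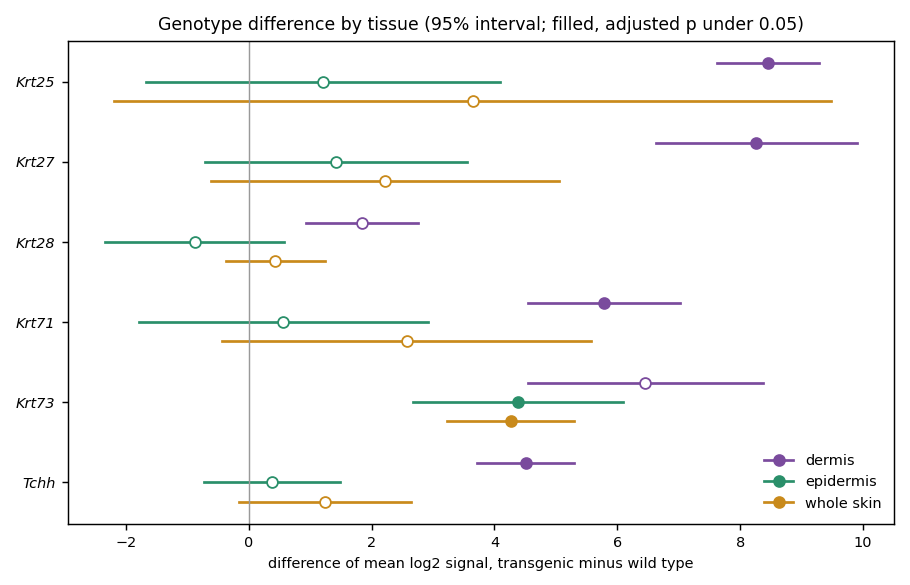
Transgenic minus wild-type difference in log2 signal of each member in dermis, epidermis and whole skin, with bars for the 95% interval of the limma fit and 3 samples a group. Krt73 has intervals above 0 in all 3 tissues, while Krt25, Krt27, Krt71 and Tchh have theirs above 0 in dermis and across 0 in epidermis and whole skin.

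The order of the group means set Krt73 apart from the other 5 genes as a description. Krt25, Krt27, Krt28, Krt71 and Tchh had their highest mean in transgenic dermis and their second in transgenic whole skin, whose SDs were 5.71 for Krt25, 2.86 for Krt27, 3.06 for Krt71, 1.63 for Tchh and 0.73 for Krt28. The gap between these first means was wider than the sum of the SDs for Tchh (9.80 ± 0.51 and 7.26 ± 1.63) and Krt28 (6.54 ± 0.58 and 5.01 ± 0.73) and narrower for the other 3 genes. For Krt25 the means ran from 10.10 in transgenic dermis through 5.13 in transgenic whole skin, 3.74 in transgenic epidermis, then for the wild type 2.53 in epidermis and 1.65 in dermis, to 1.48 in its whole skin, and no neighbours in that order differed by more than the sum of their SDs. Krt73 ran from 6.24 ± 0.36 (SD, n = 3) in transgenic epidermis through 5.73 ± 1.23 in transgenic dermis and 5.46 ± 0.05 in transgenic whole skin to 1.85 ± 1.72 in wild-type epidermis, 1.19 ± 0.85 in wild-type whole skin and −0.73 ± 0.29 in wild-type dermis. Among neighbours in that order, the gaps that exceeded the sum of the SDs were those between transgenic whole skin and wild-type epidermis and between the last pair. Transgenic epidermis and transgenic whole skin, which are not neighbours, also lay further apart than the sum of their SDs.

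Dermis and epidermis of the same genotype were then compared. Between transgenic dermis and transgenic epidermis, 5 of 6 members passed as higher in dermis, where 4.67% of all probe sets did. The differences were 6.36 ± 0.87 for Krt25 (SE; limma adjusted p = 0.00131), 5.13 ± 0.66 for Krt27 (9.69e-04), 4.10 ± 0.71 for Krt71 (0.00458), 3.46 ± 0.49 for Tchh (0.00162) and 2.91 ± 0.59 for Krt28 (0.0112). Krt73 differed by −0.52 ± 0.55 (95% interval −1.72 to 0.69; 0.666). Between wild-type dermis and wild-type epidermis none of the 6 passed, where 12.4% of all probe sets did, and 1 of them, Krt73, had an unadjusted p below 0.05 (0.0354), as 28.9% of all probe sets did. Krt73 was lower in every wild-type dermis sample than in any wild-type epidermis sample (−2.58 ± 1.10; limma adjusted p = 0.141), an order that 20.7% of all probe sets shared, and with all 18 arrays in 1 fit it passed (0.0218).

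The difference between the genotype effects of dermis and epidermis was tested directly. None of the 6 members passed, where 0.0155% of all probe sets did (7 of 45037); 5 of the 6, and 7.15% of all probe sets, had an unadjusted p below 0.05. The estimates were 7.24 ± 1.59 for Krt25 (SE; limma adjusted p = 0.294), 6.84 ± 1.35 for Krt27 (0.227), 5.22 ± 1.31 for Krt71 (0.446), 4.14 ± 0.69 for Tchh (0.0909), 2.72 ± 0.78 for Krt28 (0.544) and 2.07 ± 1.20 for Krt73 (95% interval −0.49 to 4.62; 0.708). With 16 added on the linear scale Krt25 (5.39; limma adjusted p = 0.0333) and Krt27 (4.47; 0.0401) passed, and the estimate for Krt73 was −0.015. Tchh passed without transgenic dermis sample 1 (0.0444), wild-type epidermis sample 2 (0.0459) or transgenic epidermis sample 1 (0.0121), and Krt25 without wild-type epidermis sample 2 (0.0459). The effect in dermis is therefore not shown to differ from that in epidermis by the test over all probe sets.

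Other keratins of the sheath and of its companion layer were read for 3 of 4 listed genes, and none passed in any of the 3 genotype comparisons (1 had an unadjusted p below 0.05 in dermis, 1 in epidermis, none in whole skin, where 3.93%, 15.2% and 12.6% of all probe sets had one). Krt26 was nearest, at 2.09, 1.83 and 0.57 in wild-type and 7.97, 5.82 and 5.68 in transgenic dermis, a difference of 4.99 ± 0.75 (SE; limma adjusted p = 0.129) without overlap. Krt72, a type II keratin of the sheath cuticle, differed by −0.11 ± 0.85 in dermis, and Krt75, the companion layer keratin, by −0.28 ± 0.30. Krt75 was well measured there, at 8.61 to 9.15 in wild-type and 8.19 to 8.90 in transgenic samples, whereas Krt72 reached at most 4.73.

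Of 14 genes for enzymes and proteins that modify or join trichohyalin, or that accompany it, 1 rose in dermis, 1 in epidermis and none in whole skin. Of all probe sets 0.0222%, 0.651% and 0.562% were called higher there. At the brightest probe set, 4 genes in dermis had an unadjusted p below 0.05, all higher. In epidermis 6 higher and 1 lower had one, and in whole skin 2, both higher. Of all probe sets 3.93%, 15.2% and 12.6% had one. Prr9, a proline-rich gene of the epidermal differentiation complex, stood at 4.80, 5.02 and 4.30 in wild-type and 9.72, 8.61 and 8.28 in transgenic dermis (4.16 ± 0.41, SE; limma adjusted p = 0.00432). In epidermis it was at 6.24, 7.48 and 7.96 against 7.04, 7.03 and 7.31, where the genotypes overlapped, and the difference between those effects of 4.26 ± 0.61 passed narrowly (0.0485) and lost that call under 6 of 9 other ways of processing and with 9 of 12 samples left out in turn. Without transgenic dermis sample 2 its dermis call was lost as well (limma adjusted p = 0.0797). Rptn, repetin, an S100-fused protein like trichohyalin, rose in epidermis from 7.77, 7.84 and 6.49 to 10.46, 11.60 and 10.03 (3.33 ± 0.42; limma adjusted p = 0.00217), and its dermis samples overlapped. Tchhl1, the trichohyalin-like neighbour of Tchh, was at 3.91, 2.60 and −0.51 in wild-type and 6.95, 7.58 and 5.98 in transgenic dermis (4.84 ± 0.97; limma adjusted p = 0.451), without overlap. Padi3, a peptidylarginine deiminase that acts on trichohyalin, was at 2.75, −0.66 and −0.20 against 4.19, 3.51 and 4.32 (3.37 ± 1.02, not called), dim in both. In dermis 8 of the 14 genes were higher on average (median 0.20, against −0.03 over all genes). At the brightest probe set 3 had every transgenic sample above and 1 every one below, orders that 3.51% and 5.29% of all probe sets had. The latter was Tgm3, a transglutaminase gene, at 5.11, 4.70 and 4.76 in wild-type and 4.27, 3.97 and 3.86 in transgenic dermis (not called).

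Of 14 genes for transcription factors and signals of sheath and matrix fate, read by 38 probe sets, none passed in dermis or whole skin and 1 fell in epidermis. At the brightest probe set, 1 gene higher and 3 lower in dermis had an unadjusted p below 0.05, as did 3.93% of all probe sets. In epidermis 0 higher and 2 lower had one (15.2% of all probe sets), and in whole skin 1 higher and 2 lower (12.6%). Gata3, a factor needed for inner root sheath differentiation, fell in epidermis from 9.66, 9.41 and 9.52 to 7.96, 7.65 and 8.50 (−1.49 ± 0.27, SE; limma adjusted p = 0.0194), a call lost without wild-type sample 3 (0.102), transgenic sample 1 (0.108) or transgenic sample 2 (0.0936). In dermis it was at 7.97, 7.52 and 7.17 against 5.82, 6.27 and 5.49, lower in every transgenic sample but not called (−1.69 ± 0.35; 0.468). Shh, a signal of the hair matrix, was read by 2 dim probe sets that disagreed in dermis: one differed by 5.58 ± 1.22 (limma adjusted p = 0.541), and the other by −0.35.

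Markers of the cell types that neighbour the sheath were counted in the same comparison. In dermis none of 12 hair shaft keratin genes passed. Of these, 11 were higher on average, with a median difference of 0.39 against −0.03 over all genes. An unadjusted p below 0.05 was seen in 1 of them and in 3.93% of all probe sets. The mean of this list was 2.69 to 3.89 in wild-type and 3.95 to 4.52 in transgenic samples, without overlap. Its summed linear signal was 170 to 257 in wild-type and 278 to 311 in transgenic samples. None of 7 proliferation genes passed either; all 7 were higher on average (median 0.76), and the mean of the list was 7.25 to 7.53 in wild-type and 7.74 to 8.47 in transgenic samples. In the basal keratinocyte list 0 of 7 were higher on average (median −0.59, none called, 4 with all transgenic samples below, an order that 5.29% of all probe sets had), and its mean was 9.97 to 10.1 in wild-type and 9.10 to 9.64 in transgenic samples. In the list of differentiated interfollicular keratinocytes 1 of 8 was higher on average (median −0.77, none called), and its mean was 9.49 to 10.5 in wild-type and 8.44 to 9.96 in transgenic samples. For the 8 pigment cell genes the median was 0.96, and for the 9 outer root sheath and bulge genes it was −0.04. No gene of either list passed. The mean of the pigment cell list was 5.09 to 5.53 in wild-type and 6.07 to 6.38 in transgenic samples, without overlap. Its summed linear signal overlapped, at 873 to 1095 and 989 to 1283. For the outer root sheath and bulge list the means overlapped, at 8.69 to 9.18 and 8.57 to 8.80. Hair shaft keratins in epidermis were lower on average in all 12 genes, with a median of −0.62 against −0.18 over all genes. None was called, and 2 were below an unadjusted p of 0.05, as were 15.2% of all probe sets. In whole skin 3 of 7 proliferation genes were called higher (Ccna2 by 0.91, Top2a by 0.84 and Mki67 by 0.50), as were 0.562% of all probe sets. All 7 had every transgenic sample above every wild-type one at their brightest probe set, an order that 8.44% of all probe sets had. The part of these lists in the member differences was not tested.

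**Figure D3:**
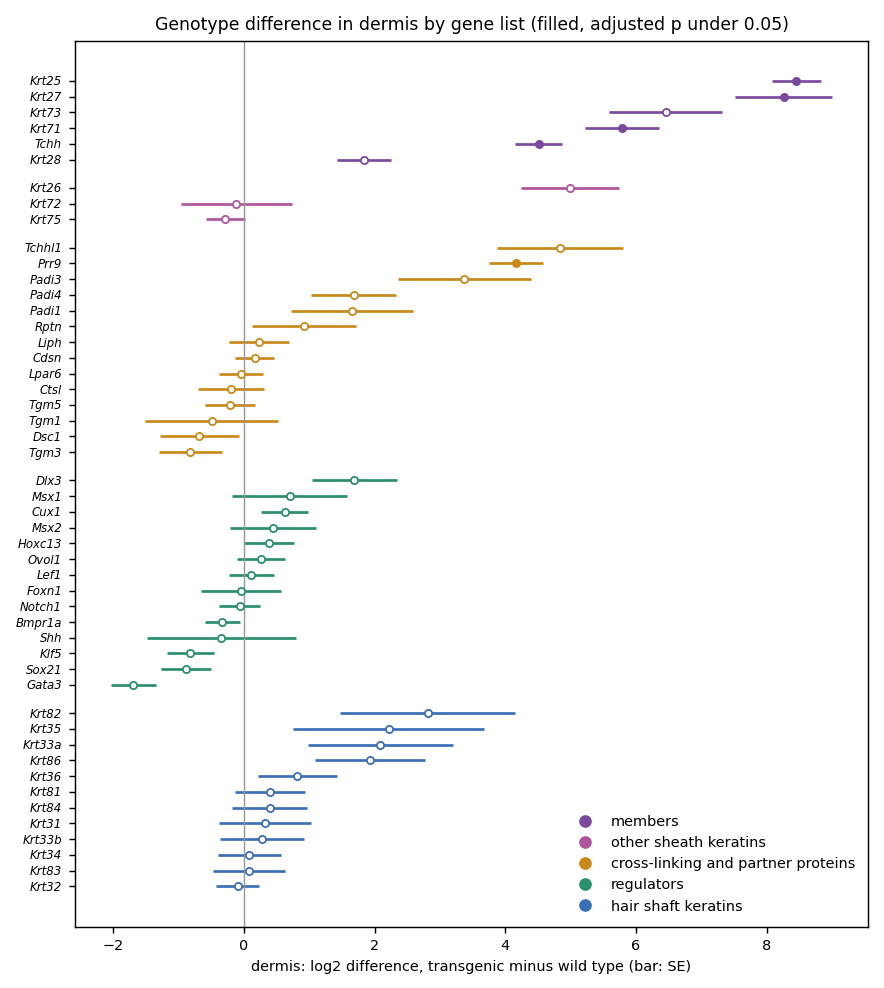
Transgenic minus wild-type difference in log2 signal in dermis for the members and the genes of 4 lists (other sheath keratins, cross-linking and partner proteins, regulators, hair shaft keratins), 1 point a gene at its brightest probe set, bars of 1 standard error, filled where the limma adjusted p was below 0.05. The members lie at 1.84 to 8.45, Krt26, Tchhl1 and Prr9 lie at 4.99, 4.84 and 4.16, and the lowest gene is Gata3 at −1.69.

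The genes lie in 3 clusters, in the order of the RefSeq annotation of GRCm38.p6, so their neighbours could be read from the same arrays. Krt25, Krt26, Krt27 and Krt28 lie side by side, and in dermis their differences were 8.45, 4.99, 8.26 and 1.84, while the genes at either end, Krt24 and Krt10, differed by −1.18 ± 0.85 and −0.84 ± 0.43. Krt71, Krt72 and Krt73 lie side by side with differences of 5.79, −0.11 and 6.45, between Krt5 (−0.59 ± 0.28) and Krt2 (−2.23 ± 0.98). Tchh lies between Rptn (0.92 ± 0.80) and Tchhl1 (4.84). None of the neighbours that are not members was called in dermis.

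**Figure D4:**
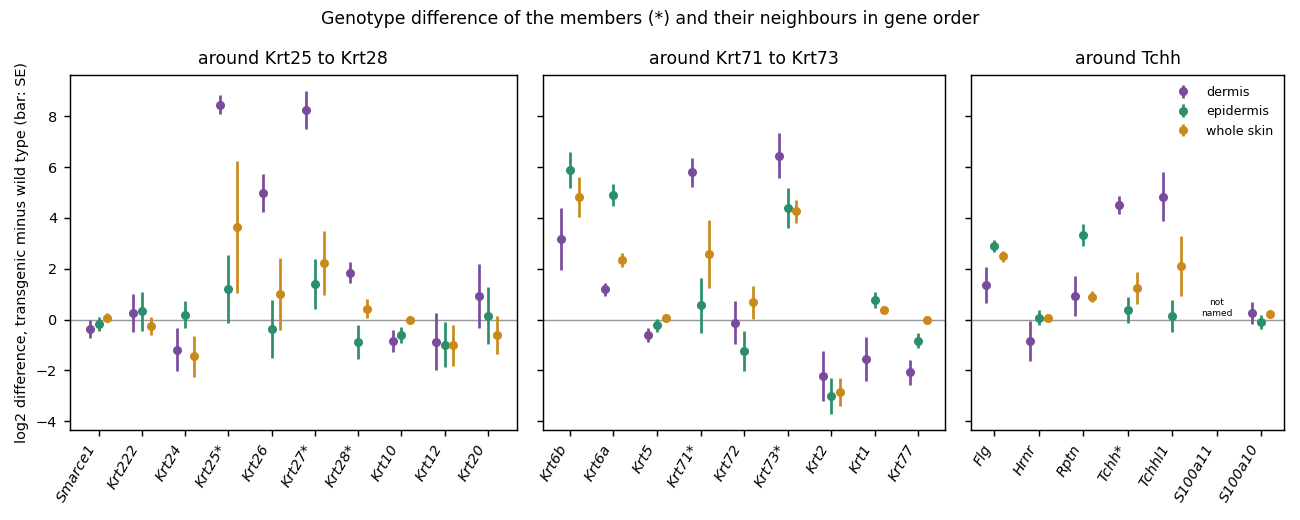
Transgenic minus wild-type difference in log2 signal in dermis, epidermis and whole skin for the genes of the 3 clusters, in annotated order with no distance to scale, bars showing the standard error, 3 samples a group. In dermis Krt25 to Krt28 lie above 0 and Krt24 and Krt10 below it, and Krt72 lies at −0.11 between Krt71 and Krt73.

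The genes whose pattern was most like the members' were ranked by Pearson's r with the mean standardised level of the members over the 18 arrays, on log2 of the linear signal plus 16. The arrays fall into groups by tissue and genotype, so r is a description and has no p. The highest were Sirpb1a (0.929), Cbln1 (0.917 at the highest of its 3 probe sets), Krt26 (0.907), Saa3 (0.884), Chodl (0.868), Gja3 (0.865), Fbp1 (0.862), Cyp7b1 (0.859), Fpr2 (0.855) and Krtap9-3 (0.849), a keratin-associated protein. Some were dim on every array: Sirpb1a reached at most 4.97, Gja3 3.85 and Fpr2 5.34. Sirpb1a, Krt26, Gja3, Fbp1, Cyp7b1, Fpr2 and Krtap9-3 were called in none of the 3 genotype comparisons. Chodl rose in whole skin by 2.08 (limma adjusted p = 0.0126) and was at 4.98 to 5.11 in all 3 transgenic samples there. In the third one it therefore did not follow the members other than Krt73. Saa3 rose in whole skin by 5.89 (limma adjusted p = 0.0278), from 2.35 to 3.06 up to 5.66 to 10.61.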

How the data were processed

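The authors deposited 1 table of 45037 probe sets by 18 arrays. The submitters' processing notes name MAS5, an Affymetrix algorithm that subtracts mismatch signal and scales every array to 1 mean; its version was not named. The deposited values were taken as log2 signal, read from the numbers: set back to the linear scale, the trimmed mean lay between 98.9 and 99.5 on every array. No 2 arrays held identical values. Subtraction makes dim values scatter on the log2 scale, so folds against them are imprecise.

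Gene names came from the platform's annotation table (34945 probe sets with 1 symbol, 932 with several, 9160 with none). Each probe set was tested on its own, without a filter, with limma 3.58.1 in R 4.3.3 (lmFit, eBayes with a trend on mean signal), over the arrays of the groups compared, with Benjamini-Hochberg adjustment over all 45037 probe sets and a threshold of 0.05. The groups compared alone supplied the spread because its median SD differed between tissues, from 0.20 in whole skin to 0.59 in transgenic dermis. The fit was tested on simulated data. There, 10.3% of its calls were false in dermis, 6.78% in epidermis, 7.77% in whole skin and 15.6% for dermis minus epidermis. Between tissues 5.6% (wild type) and 8.33% (transgenic) were false. Of differences of 2 log2 units placed in that data, it called 28% in dermis, 30% in epidermis, 84% in whole skin and 20% for dermis minus epidermis. For 4 log2 units these shares were 76%, 80%, 94% and 72%. The members, the lists and the alternatives were chosen with earlier results of these data known. Named genes are all members, the genes of each list with the smallest p, and the probe sets most like the members. The other probe sets called in dermis, the cluster neighbours and Tgm3 were named after their values were seen. A list is described by its counts and median. Of the listed genes, Ccnb1, Dsg4, Fbn1, Krt74 and Krt85 had no probe set with 1 symbol. Alternatives covered the arrays fitted, a filter, 2 scalings, 16 added on the linear scale, the choice of probe set, a replicate block and each sample left out.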

Additional observations from a re-analysis of the deposited data

Results flagged for a closer look

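In the reported fit, Prr9 was the one gene among the sheath lists whose genotype difference passed the test of a difference between dermis and epidermis. It was 4.16 log2 units in dermis and −0.10 in epidermis, and the difference of these effects was 4.26 ± 0.61 (SE, n = 3 samples in each of 4 groups; limma adjusted p = 0.0485). All 3 transgenic dermis samples (9.72, 8.61 and 8.28) were above all 3 wild-type ones (4.80, 5.02 and 4.30). The call was lost under 6 of 9 other ways of processing (limma adjusted p 0.0304 to 0.106 over all 9), among them the filter (0.0663), quantile normalization (0.0858) and the common 75th percentile (0.0544). It was also lost with 9 of 12 samples left out in turn (0.0046 to 0.220), while the difference stayed between 3.84 and 4.76. The cause was not tested. Outside those lists Krt15, a gene of the outer root sheath and bulge list, passed the same test (3.29 ± 0.48, SE; limma adjusted p = 0.0485).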

How the results depend on the processing

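Of 576 member values under other settings, 546 kept their direction and side of the threshold, 10 lost a call, 13 gained one and 7 changed sign. The sign changes were Krt25 in epidermis (−0.31 without wild-type sample 2, −0.13 without transgenic sample 1), Krt71 there (−0.29 and −0.30 without the same samples), Tchh there (−0.27 without transgenic sample 1), Krt73 for dermis minus epidermis (−0.015 with 16 added) and Krt25 between wild-type tissues (0.058 without epidermis sample 3). None of these was called. Over the samples left out in turn these values ran from −0.31 to 2.15 for Krt25, −0.30 to 1.65 for Krt71 and −0.27 to 0.70 for Tchh in epidermis, and from −2.40 to 0.058 for Krt25 between wild-type tissues.

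Counts over all probe sets moved more. With all 18 arrays in 1 fit they were 54 in dermis (10 in the reported fit), 1595 in epidermis (482), 32 in whole skin (426), 42 for dermis minus epidermis (7) and 8657 between transgenic tissues (3924). In dermis 21 of the 54 were higher, against 10 of 10. That fit with 1 probe set a gene and a filter gave 38, 1044, 37 and 42 for the first 4. With 16 added, dermis had 6 and whole skin 276. The mean of a gene's probe sets gave 226 in whole skin, and 1 probe set a gene gave 4 for dermis minus epidermis; the tissue comparisons had 2633 and 2542 (wild type, 5565 in the reported fit) and 2296 and 2169 (transgenic), with fewer features tested. For dermis minus epidermis, the filter, quantile normalization and a common 75th percentile each gave 0. Called members became 2 for dermis minus epidermis with 16 added and 1 between wild-type tissues with all 18 arrays, with or without the filter, against 0 and 0.

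Leaving out 1 sample gave 2 to 38 calls in dermis, 97 to 2071 in epidermis, 123 to 433 in whole skin, 0 to 49 for dermis minus epidermis, 2278 to 8101 between wild-type tissues and 1828 to 6616 between transgenic ones. Called members were then 2 to 4, 0 to 1, 1 to 1, 0 to 2, 0 to 0 and 5 to 5. The largest shifts were the 38 without transgenic dermis sample 1, the 2 without transgenic dermis sample 2, and the 2071 and 97 without wild-type sample 2 and transgenic sample 1 of epidermis.

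The labels link samples by no more than a replicate number. Same-numbered deviations correlated at −0.30 to −0.05 in dermis, −0.33 to 0.03 in epidermis, −0.14 to 0.07 in whole skin, −0.04 to 0.05 between wild-type tissues and 0.0027 to 0.40 between transgenic tissues, where 1 of 3 pairs stayed below 0.1. A replicate block gave 8 calls in dermis, 288 in epidermis, 297 in whole skin and 2 for dermis minus epidermis, and 4, 1, 1 and 0 called members. Dim signal limits Krt25, Krt27, Krt71 and Krt73 in wild-type samples, where folds are imprecise.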
